A study of Mus musculus with 6 samples.

Results

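The 8 genes that act on cellular pH and were described in B16F10 cells, an established line of mouse melanoma cells, are the carbonic anhydrases Car2, Car9, Car12 and Car13, the lactate and proton transporters Slc16a1 and Slc16a3, their chaperone Bsg, and the bicarbonate transporter Slc4a7. They were found by symbol, 8 of the 27179 genes in the table, and each symbol matched 1 row. The group was chosen by function around a measured difference of Car9 between the treatments, which belongs to the authors' comparison and is not given here. RNA was sequenced from 3 cultures that received 0.01% OZO, olive oil exposed to ozone, and 3 that received 0.01% OLO, the olive oil it is made from, both for 6 h. All 6 cultures were wild type and stood in medium with fetal bovine serum under 5% CO2. No untreated cultures were analysed here, so the oil itself is common to both groups. Because the only value used is a mean over both groups, each level below is that of OZO-treated and OLO-treated cells together, and the spread between cultures cannot be given.

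A dividing cell that runs on glycolysis makes lactate and protons, and it keeps its cytoplasm from turning acid by sending them out. Monocarboxylate transporters of the SLC16 family carry lactate together with a proton across the plasma membrane, and need a single-pass partner such as basigin, the product of Bsg, to reach it. Carbonic anhydrases convert carbon dioxide and water into bicarbonate and a proton and back, in the cytosol or on the outer face of the cell. Sodium-coupled bicarbonate transporters such as the product of Slc4a7 bring bicarbonate in, where it takes up protons. In tumours, Car9, Car12 and Slc16a3 are known as genes of cells short of oxygen, and Car9 is a classical target of the transcription factor HIF-1.

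Promoter sequence is shown for Car9, the gene around which the group was built, and for the 2 lactate transporters, whose levels lay far apart. RefSeq promoters of build GRCm38.p6 matched 5 of the 8 genes. Each run gives the 250 bases before the RefSeq start on the plus strand, 5′ to 3′. Capitals mark ACGTG, a form of the core bound by HIF factors, on either strand (CACGT on the other). The windows are chr4:43506776-43507025 for Car9, chr3:104638414-104638663 for Slc16a1 and chr11:120948817-120949066 for Slc16a3.
Car9: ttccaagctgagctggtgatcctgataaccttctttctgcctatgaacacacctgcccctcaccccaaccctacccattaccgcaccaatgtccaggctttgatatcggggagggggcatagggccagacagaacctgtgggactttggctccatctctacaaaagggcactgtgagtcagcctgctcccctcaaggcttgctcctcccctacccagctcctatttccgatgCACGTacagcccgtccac
Slc16a1: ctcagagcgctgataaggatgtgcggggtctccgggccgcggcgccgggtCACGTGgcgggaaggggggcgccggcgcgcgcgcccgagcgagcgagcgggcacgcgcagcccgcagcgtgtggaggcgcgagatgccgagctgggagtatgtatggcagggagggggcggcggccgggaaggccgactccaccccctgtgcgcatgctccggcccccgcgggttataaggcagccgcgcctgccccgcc
Slc16a3: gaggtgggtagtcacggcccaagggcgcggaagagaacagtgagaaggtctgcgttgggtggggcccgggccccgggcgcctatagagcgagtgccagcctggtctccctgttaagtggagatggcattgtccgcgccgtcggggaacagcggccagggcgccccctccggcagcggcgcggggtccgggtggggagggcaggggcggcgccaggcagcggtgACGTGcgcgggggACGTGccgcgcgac

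The Car9 window held 1 match, from base -18 to base -14 before the RefSeq start. Slc16a3 held 2, from -27 to -23 and from -14 to -10. In Slc16a1 the palindrome CACGTG, from -200 to -195, counts once on each strand, and another match lay past the printed part, from base 21 to base 25 after the start. Car12 and Slc4a7 held 0 in their windows of 300 bases, which run to 50 bases after the start. Of all 32851 RefSeq promoter windows of that length, 19.6% held ACGTG on either strand, so a match is a frequent event. The letters GCGTG, another form of the HIF core, are not marked. They stood in 32.4% of all windows and, among these 5 genes, 2 times in Slc16a1 and in none of the others. Either form stood in 43.8% of all windows. CpG dinucleotides numbered 42 in Slc16a1 and 36 in Slc16a3, above 97.0% and 93.8% of all windows. Car12 had 9, Car9 had 5 and Slc4a7 had 2, beside a median of 7 over all windows. RefSeq and GENCODE starts differed for some genes. That of Car9 lay 60 bases inside the GENCODE gene, that of Slc16a3 587 bases inside and that of Slc4a7 16505 bases inside, so these windows may not be the start used in these cells.

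Genes expressed in these cells were recognised on the authors' mean of log2 CPM, where CPM is the reads of a gene scaled to a common library size. Among all genes, 6025 had no reads and 21154 had reads, and 1 CPM corresponded to 19.6 reads in a library of average depth (19641945 reads, a geometric mean). Reads of each library are unknown. The 7 melanocyte markers Pmel, Mlana, Tyr, Tyrp1, Dct, Mitf and Sox10 lay between 109 and 7052 CPM. Keratinocyte and leukocyte markers, 7 in all, were each at 0.271 CPM or less, and Krt5 had no reads. Fibroblast markers reached 3.28 CPM and endothelial markers 1.21 CPM. Their part in the levels below was not tested. In bulk RNA, fewer cells with a transcript and less transcript per cell cannot be told apart.

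The 8 genes fell into an upper and a lower set of 4. Bsg, Slc16a1, Car13 and Slc4a7 had between 89.0 and 307 CPM, and Slc16a3, Car9, Car2 and Car12 had between 0.356 and 1.87 CPM. All 8 had reads, and 6 had at least 1 CPM. Of the genes with reads in the whole table, 56.2% reached 1 CPM. On this scale, which is not corrected for length, the median of the mean log2 CPM was 3.69 for the 8 genes and 1.45 over all genes with reads, and 4 of the 8 lay above the latter.

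**Figure D1:**
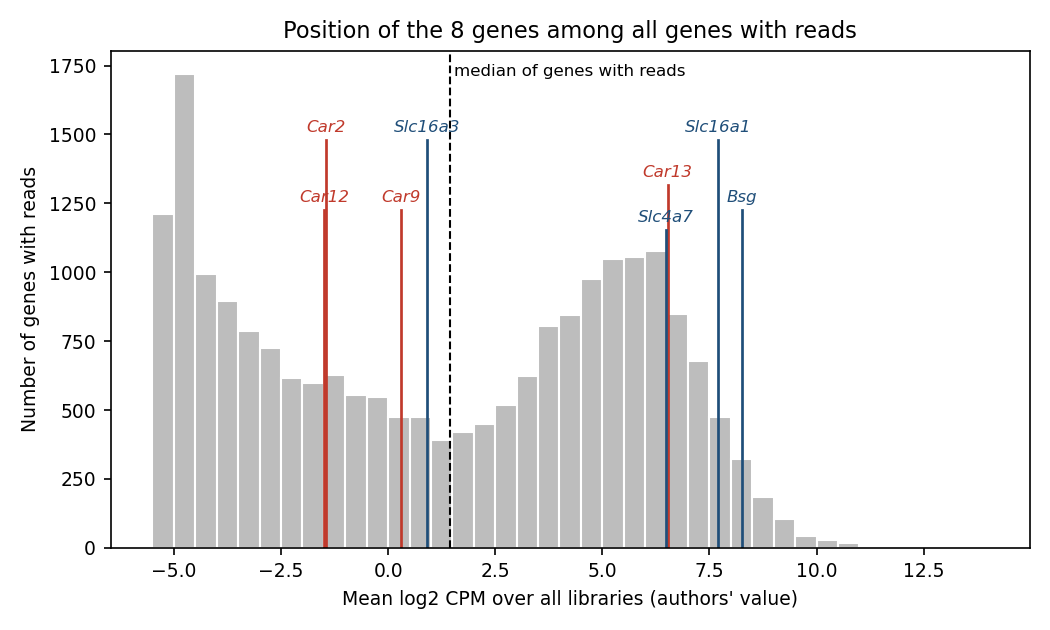
Number of genes with reads (vertical axis) by the authors' mean log2 CPM over all 6 libraries (horizontal axis), with the 4 carbonic anhydrases as red lines, the other 4 genes as blue lines and the median of genes with reads as a dashed line. In all, 4 lines lie right of the median of 1.45, between 6.48 and 8.26, and 4 lie left of it, between -1.49 and 0.90.

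Long transcripts yield more fragments, so levels of different genes were compared as CPM per kb of the longest GENCODE transcript. Bsg came first at 201 CPM per kb, followed by Slc16a1 at 47.2, Car13 at 40.0 and Slc4a7 at 11.0. A gap of 17.9-fold separated Slc4a7 from the next gene, Car9, at 0.613 CPM per kb. Slc16a3 had 0.432, Car2 had 0.205 and Car12 had 0.0957 CPM per kb. Counting intervals of 95% did not overlap between any neighbours in this order. They were built from about 6 times the geometric mean reads of a library, without the 0.5 that voom adds. Those intervals cover counting error only, and without single libraries no neighbour can be said to differ beyond the spread between cultures.

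**Figure D2:**
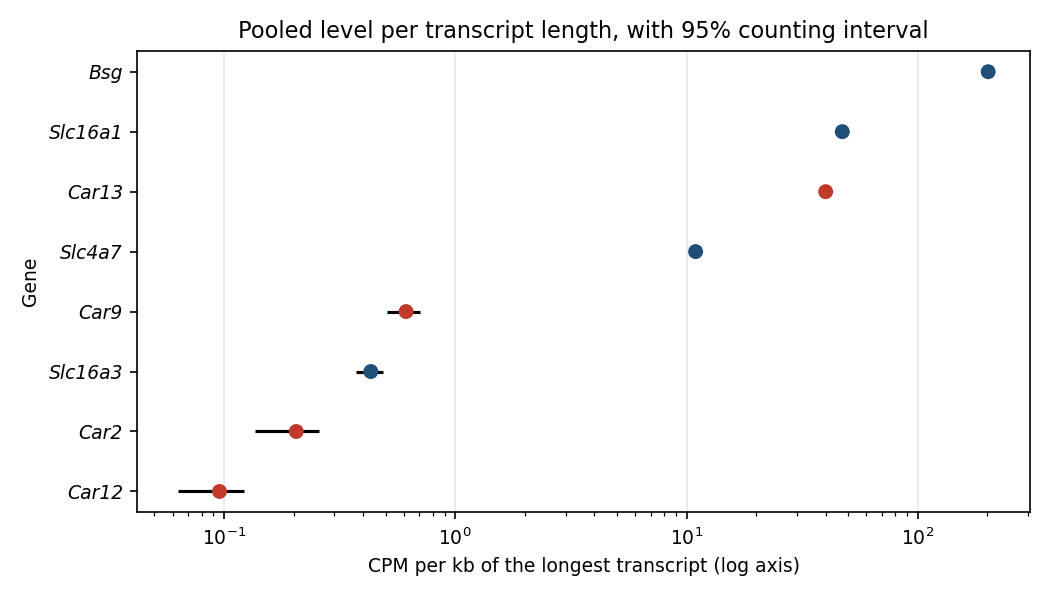
Level of each gene in CPM per kb of its longest transcript on a log axis, with carbonic anhydrases in red, the other genes in blue and black lines for the 95% counting interval, which is narrower than the point for the upper genes. Points run from 0.0957 for Car12 to 201 for Bsg, with a wide gap between Car9 and Slc4a7.

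Among the described genes of lactate transport, RNA of Slc16a1 and Bsg was in the upper set and that of Slc16a3 in the lower. Slc16a1 encodes MCT1, a transporter of lactate, pyruvate and ketone bodies found in most cells. Its mean log2 CPM was 7.71, or 209 CPM from 4099 reads per library, and it ranked 969th of all genes from the top. The gene lies on chromosome 3 of GRCm38 from 104638668 to 104658462 on the plus strand, with 1 annotated transcript of 5 exons. Slc16a3 encodes MCT4, the form that glycolytic cells use for export. It had a mean log2 CPM of 0.90, or 1.87 CPM from 36.8 reads per library. That gene lies on chromosome 11 from 120948480 to 120960868 on the plus strand, and has 8 annotated transcripts. Per kb, Slc16a1 stood 109-fold above Slc16a3, and 40.9-fold to 134-fold over 4 measures of length (the longest transcript, all exons merged, the median coding transcript and the coding length). The size of this ratio rests in part on length, since the longest Slc16a3 transcript, 4335 bases, is far longer than the median of its coding transcripts, 1624 bases.

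Bsg, on chromosome 10 from 79704491 to 79711969 on the plus strand, is the glycoprotein that carries both transporters to the membrane. With a mean log2 CPM of 8.26 and 6039 reads per library it lay above 97.5% of genes with reads on the CPM scale, which is not corrected for length. Per kb its level was 4.27 times that of Slc16a1, and 1.87 times with coding length. Basigin also has roles outside lactate transport, so its level is not that of the transporter complex. In the list of 6 monocarboxylate transporters and chaperones, all had at least 1 CPM, and the 3 described genes made up 87.9% of the summed CPM per kb (80.4% to 93.5% over the 4 measures of length). Emb, which encodes embigin, another chaperone of the same family, had 32.7 CPM per kb. Its order with Slc16a1 depended on length, since Slc16a1 was 1.44 times as high with the longest transcripts and 0.833 times as high with the median coding transcripts. Slc16a8, the MCT3 gene known from the retinal pigment epithelium, had 1.43 CPM per kb, and stood 1.24-fold to 3.32-fold above Slc16a3 over the 4 measures.

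Among the carbonic anhydrases, Car13 stood alone in the upper set. It encodes a cytosolic enzyme, and its mean log2 CPM of 6.52 came from 1805 reads per library, or 91.9 CPM. The gene lies on chromosome 3 from 14641727 to 14663002 on the plus strand and has 1 annotated transcript of 7 exons. Car2, the fast cytosolic enzyme of red cells, kidney and osteoclasts, lies in the same stretch of chromosome 3, from 14886273 to 14900770 on the plus strand. Its mean log2 CPM was -1.44, which is 0.367 CPM or 7.21 reads per library with the 0.5 reads that voom adds. Per kb, Car13 was 195-fold above Car2 (129-fold to 264-fold over the measures of length), so the 2 cytosolic enzymes of this group were far apart. At such depth the level of Car2, with a counting interval from 0.136 to 0.258 CPM per kb, is known only roughly.

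Both membrane-bound enzymes, whose active site faces outward, were in the lower set. Car9 had a mean log2 CPM of 0.31, or 1.24 CPM from 24.4 reads per library. It lies on chromosome 4 from 43506966 to 43513729 on the plus strand, with 7 annotated transcripts, of which the longest has 11 exons. Of its merged exons, 9.29% overlap exons of Gm12454, an antisense gene, and strand use in the counting is not given in the sources used here, so reads of these genes cannot be told apart there. Words of 100 bases that also occur in transcripts of another gene made up 2.49% of the longest Car9 transcript and 0% of those of the other 7 genes. Car12, on chromosome 9 from 66713686 to 66766845 on the plus strand, had a mean log2 CPM of -1.49, which is 0.356 CPM or 6.99 reads per library. Car9 was 6.40 times as high as Car12 per kb, and from 2.82 times with coding length to 11.5 times with merged exons. Car13 stood 65.2-fold above Car9 (44.1-fold to 124-fold over the measures of length) and 418-fold above Car12 (349-fold to 854-fold).

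Seen within the whole family of 16 carbonic anhydrases, the 4 described genes held 15.5% of the summed CPM per kb, and 13.2% to 24.1% over the measures of length. Reads were found for all 16, and 8 had at least 1 CPM. Per kb of the longest transcript, Car13 held 15.2% of the family's sum (12.7% to 23.7% over the measures), Car9 0.232% (0.192% to 0.289%), Car2 0.0779% (0.0745% to 0.0987%) and Car12 0.0363% (0.0230% to 0.0680%). Their places in the family moved with the measure of length, between 2 and 3 for Car13, 5 and 8 for Car9, 10 and 11 for Car2, and 11 and 12 for Car12. Car9 is not separated from its neighbours in the family. Counting intervals of Car5b, Car7 and Car4 overlap its own, Car5b and Car7 pass it with coding length, and it passes Car11 with the median coding transcript. The largest part, 56.6%, and 49.3% to 62.5% over the measures of length, came from Car14, whose enzyme is anchored in the membrane and also faces outward, at 149 CPM per kb. Car6, known as the enzyme secreted in saliva, followed at 67.8 CPM per kb with 25.7% (22.4% to 28.7% over the measures). With coding length Car13 passed Car6, at 117 against 112 CPM per kb. Under each of the 4 measures Car14 came first in the family.

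**Figure D3:**
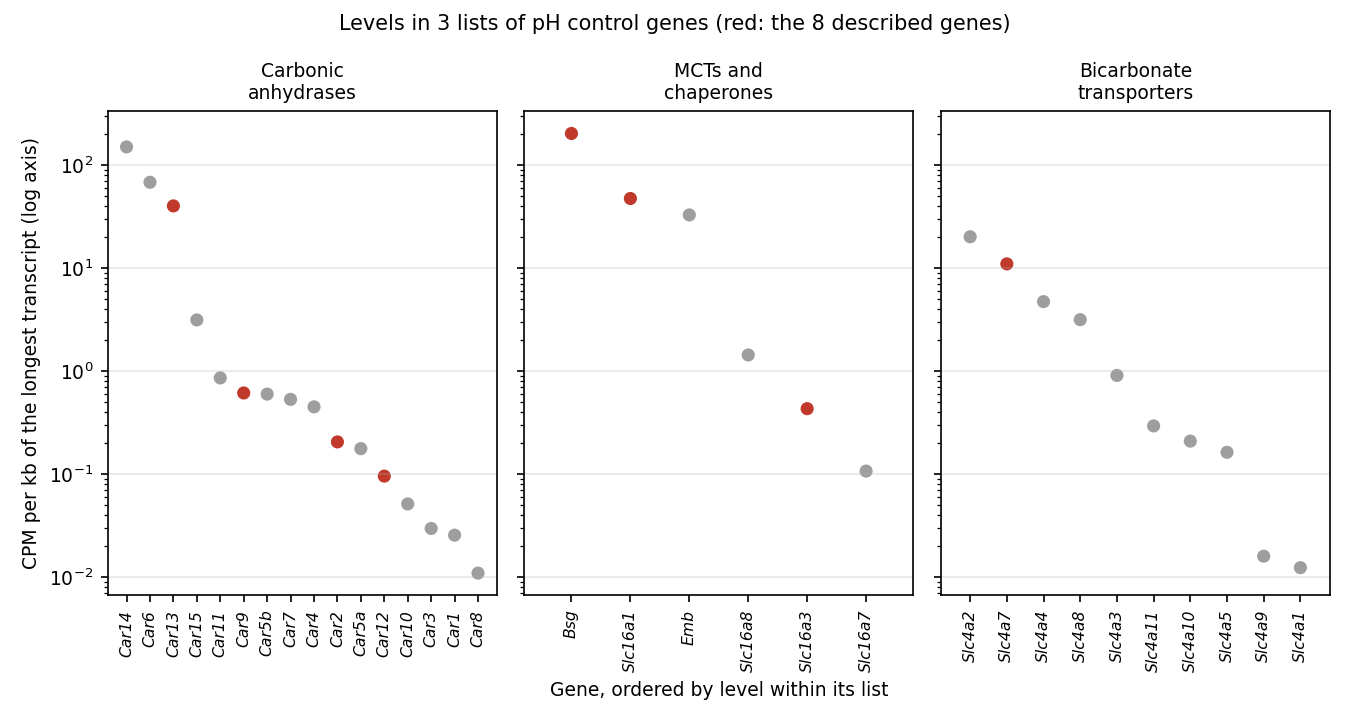
CPM per kb of the longest transcript on a log axis for every gene of 3 lists (carbonic anhydrases, monocarboxylate transporters with their chaperones, and bicarbonate transporters), ordered by level within each list, with the described genes in red and other genes in grey. Car13, Bsg, Slc16a1 and Slc4a7 stand among the first 3 of their lists, while Car9, Car2, Car12 and Slc16a3 stand lower, with this measure of length.

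Slc4a7 encodes NBCn1, which carries sodium and bicarbonate into the cell without net charge. It lies on chromosome 14 from 14702279 to 14799940 on the plus strand and has 25 annotated transcripts. Its mean log2 CPM was 6.48, or 89.0 CPM from 1749 reads per library. Of the 10 bicarbonate transporters listed, 6 had at least 1 CPM, and Slc4a7 held 27.0% of their summed CPM per kb (14.1% to 35.1% over the measures of length). Slc4a2, which exchanges chloride for bicarbonate, had 20.1 CPM per kb, 1.83 times the level of Slc4a7, and 0.879 times with coding length. Slc4a4, an electrogenic transporter of sodium and bicarbonate, had 4.72 CPM per kb. Slc4a7 was 2.32 times as high as Slc4a4, and 0.957 times with the median coding transcripts, so the order of these 3 transporters is not settled.

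Levels per kb moved with the measure of length, by a factor between 0.489 and 3.50 from the longest transcript. With coding length as the divisor, Car12 came to 0.335 CPM per kb, 3.50 times its value with the longest transcript, and Slc16a3 to 1.33, a factor of 3.07. Slc16a3 then passed Car9, at 0.946, and it did so as well with the median coding transcript, at 1.15 against 0.907 CPM per kb. The order of Car9 and Slc16a3 is therefore not settled by these data. Under all 4 measures the upper 4 genes stayed above the lower 4, by at least 9.50-fold, and kept the order Bsg, Slc16a1, Car13 and Slc4a7.

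**Figure D4:**
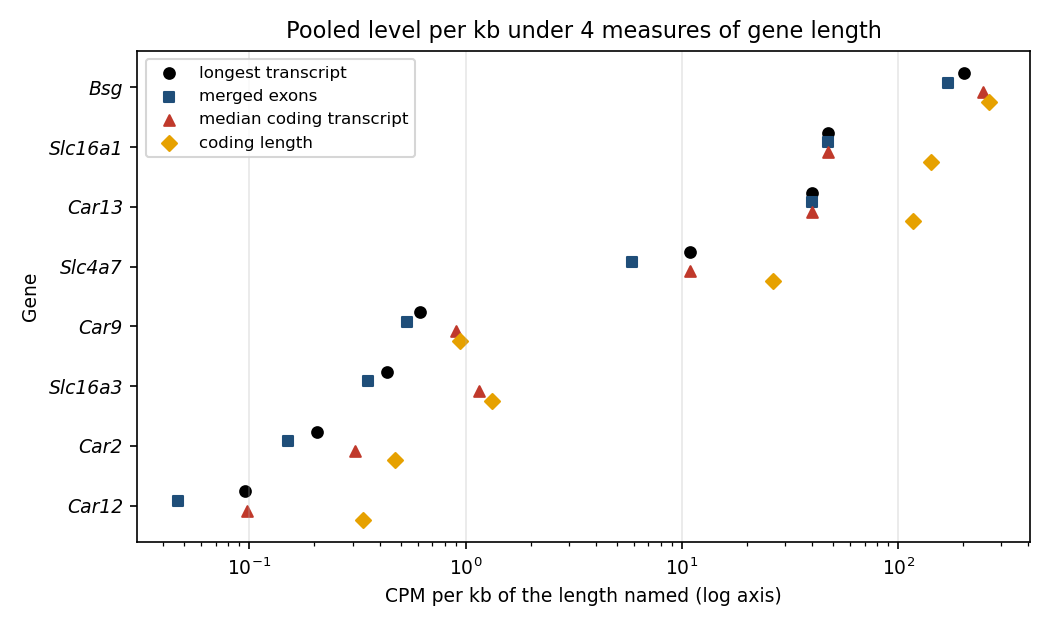
CPM per kb on a log axis for each gene with the longest transcript (circles), all exons merged (squares), the median coding transcript (triangles) or the coding length (diamonds) as the divisor. Points of Car9 and Slc16a3 change places, while the upper 4 genes remain right of the lower 4 under each measure.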

How the data were processed

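RNA of 6 B16F10 cultures was measured by RNA-seq from a directional library kit. According to the methods and the submitters' processing notes, the authors aligned reads to mm10 with HISAT2 (2.1.0), counted them per gene with featureCounts (2.1.1) and ran limma-voom (3.58.1). The deposited log2 values used here are limma's mean expression over all 6 libraries, that is log2 CPM with 0.5 reads added to each count. Other columns of the deposited table hold the authors' own comparison of OZO with OLO (log2 fold change, moderated statistic, p-values and log odds) and were not used, so no test between the groups was made.

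The lowest value, shared by genes without reads, gave the geometric mean library size through the formula of voom, and from it reads per library. CPM is 2 to the power of the mean, hence a geometric mean. GENCODE M21 (GRCm38, the build called mm10) gave positions, overlaps and lengths for all 45 listed genes, and held 23821 of the 24065 Ensembl identifiers in the table. Calculations ran in Python 3.11.15 with pandas 2.3.3, scipy 1.17.1 and numpy 2.4.6, figures were drawn with matplotlib 3.10.9, and the recovery of library size was tested on simulated counts.

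Named were the 8 genes and, of each list, the 2 highest others per kb, except for 2 lists that are not reported here. Car4, Car5b, Car7 and Car11, the neighbours of Car9 in its family, were named after their values were seen. Members and lists were chosen with earlier results of these data known. Genes with a similar pattern were not sought, since 1 mean per gene has no pattern.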

Additional observations from a re-analysis of the deposited data

How the results depend on the processing

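No paired analysis was possible because each gene has 1 mean over both groups, in which no library or replicate number can be told from another. No library could therefore be left out and no other normalization tried. Against the median of all 27179 genes, which includes those without reads, 7 of the 8 genes lay above it in place of 4, and against the median of genes with at least 1 CPM it was 4 again. With a limit of 5 CPM, 4 genes passed, and with 0.5 CPM 6 passed, as with 1 CPM. Subtracting the 0.5 reads of voom left all 8 genes at their place in the order per kb. The counting intervals were built without those 0.5 reads, so no level could leave its interval by that step. Merged exons as the length kept all 8 places, and the median coding transcript and the coding length kept 6. Of the 24 levels per kb under another length, 16 left the counting interval, by the construction of the measure. Ratios and places within lists under other lengths were added after the data were seen. Ratios were taken for chosen pairs only, and 3 of them turned over: Slc16a1 to Emb (0.833) and Slc4a7 to Slc4a4 (0.957) with the median coding transcript, and Slc4a2 to Slc4a7 (0.879) with coding length. Changes of place outside these pairs, as of Car9 and Slc16a3 or of Car13 and Car6, are given above. Depth limits Car2 and Car12 most, with about 40 and 39 reads when 6 times the geometric mean of a library is taken. The true totals over all libraries are unknown and may be higher.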
